A study of Mus musculus with 4 samples.

Results

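The nuclei described here carry the transcripts of striatal projection neurons with the dopamine receptor Drd1 and are called D1 nuclei. They were chosen by raw counts of unique molecular identifiers (UMIs, each standing for 1 captured RNA molecule) for 5 genes, namely Rarb at least 2, Pde10a at least 3, Drd1 at least 1, Adora2a 0 and St18 under 3. Nuclei also had to hold 200 to 6000 genes, under 2% mitochondrial UMIs and at least 2000 UMIs. The rule found 769 D1 nuclei among the 48940 nuclei within these limits. Levels of the 5 genes are therefore a property of the choice and are given without a test.

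The study dissected the lateral septum (LS), a forebrain region that borders the striatum, from male mice aged 6 to 8 weeks and sequenced single nuclei with the 10x Chromium 3' assay. Libraries C57J 1 and C57J 2 came from C57BL/6JNifdc mice, the nude library from BALB/c nude mice and the BALB/c library from BALB/c mice, with 3 animals pooled in each library. Nude mice lack functional Foxn1 and with it a normal thymus, and they descend from the BALB/c background. C57J 1 was made in batch 1 and the other libraries in batch 2, so the nude and BALB/c groups have 1 library each and the C57J group has 1 library in each batch. Pooling hides the spread between animals, and p-values below measure the spread between libraries. Over all kept nuclei Foxn1 had 2 to 6 UMIs per library, with 5 for nude, and D1 nuclei had 0, so these counts cannot check the nude label.

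D1 neurons are GABAergic output neurons of the striatum. Dopamine acting on Drd1 couples through the G protein subunit Gnal to adenylyl cyclase 5 (Adcy5) and raises cyclic AMP, which the phosphodiesterase Pde10a degrades. D1 neurons classically carry the peptides substance P (from Tac1) and dynorphin (from Pdyn) and form the direct pathway, whereas neurons with Drd2, Adora2a and enkephalin (from Penk) form the indirect pathway. Rarb encodes a retinoic acid receptor and served in the study to set striatal neurons apart from septal ones. The striatum is further divided into patches called striosomes and a surrounding matrix.

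Promoters of 4 genes that bear on these nuclei are shown first. RefSeq sequence on GRCm38 runs from 250 bases before to 50 bases after a transcription start, 5' to 3' on the strand of the gene. Rarb, which the rule uses, lies on the minus strand at chr14:16575427-16575726, and capitals mark a direct repeat read as a retinoic acid response element, GTTCAC followed after 5 bases by GTTCA. Tac1, the peptide gene that led the D1 markers, is on the plus strand at chr6:7554811-7555110, with capitals on the reverse complement of TGACGCAA, a variant of the cyclic AMP response element. Cartpt (minus strand, chr13:99900634-99900933) and Scg2 (minus strand, chr1:79439977-79440276) are among the leading genes of a D1 subgroup described below, and capitals mark the cyclic AMP response element TGACGTCA.
Rarb: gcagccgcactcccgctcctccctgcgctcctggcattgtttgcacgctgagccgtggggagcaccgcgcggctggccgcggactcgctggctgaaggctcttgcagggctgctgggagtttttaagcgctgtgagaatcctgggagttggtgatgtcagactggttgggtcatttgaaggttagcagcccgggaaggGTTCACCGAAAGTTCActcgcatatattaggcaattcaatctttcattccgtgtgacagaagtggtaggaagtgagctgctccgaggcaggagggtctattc
Tac1: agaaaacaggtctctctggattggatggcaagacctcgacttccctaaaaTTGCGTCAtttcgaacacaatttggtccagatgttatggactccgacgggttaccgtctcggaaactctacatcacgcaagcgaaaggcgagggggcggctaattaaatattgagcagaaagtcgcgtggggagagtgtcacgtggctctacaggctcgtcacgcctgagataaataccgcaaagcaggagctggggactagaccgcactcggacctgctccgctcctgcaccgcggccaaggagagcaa
Cartpt: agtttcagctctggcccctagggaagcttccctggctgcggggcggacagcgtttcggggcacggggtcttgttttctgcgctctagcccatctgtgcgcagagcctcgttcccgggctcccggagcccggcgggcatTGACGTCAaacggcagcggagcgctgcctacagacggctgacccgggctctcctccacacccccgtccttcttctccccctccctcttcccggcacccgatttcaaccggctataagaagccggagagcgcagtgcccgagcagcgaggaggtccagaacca
Scg2: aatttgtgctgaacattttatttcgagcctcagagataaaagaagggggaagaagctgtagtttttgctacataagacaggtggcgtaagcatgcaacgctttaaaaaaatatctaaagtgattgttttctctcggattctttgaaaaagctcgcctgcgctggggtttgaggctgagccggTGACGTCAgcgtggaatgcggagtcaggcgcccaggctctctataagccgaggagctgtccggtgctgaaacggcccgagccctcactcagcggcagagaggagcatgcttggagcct
Both strands of 32851 such promoters were searched. The direct repeat was found in 4 of them (0.0122%), TGACGCAA in 161 (0.490%) and TGACGTCA in 588 (1.79%). TGACGTCA is a palindrome and shares its first 5 letters with TGACGCAA. A match is a string of letters and was not tested as a binding site.

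The share of D1 nuclei was 3.01% in C57J 1 (409 of 13581, 95% exact interval 2.73% to 3.31%). C57J 2 had 1.24% (139 of 11191, 1.05% to 1.46%). The nude library had 0.498% (61 of 12251, 0.381% to 0.639%) and BALB/c had 1.34% (160 of 11917, 1.14% to 1.57%). The C57J libraries thus differed from each other by more than C57J 2 differed from BALB/c, and nude was the lowest. These intervals cover counting error alone, and how much striatum each dissection took cannot be told apart from the strain. The mean share was 2.13% over the C57J libraries and 0.920% over nude and BALB/c (p = 0.667, exact permutation test over libraries, two-sided), and 2 against 2 libraries cannot go below p = 0.333.

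Depth changed how many nuclei met the rule. When each nucleus was thinned to 2000 UMIs before the rule was applied, 67 D1 nuclei (0.493%) were left for C57J 1, 27 (0.241%) for C57J 2, 9 (0.0735%) for nude and 15 (0.126%) for BALB/c. C57J 2 then lay above BALB/c, while C57J 1 was still the highest and nude the lowest, as the plot of shares by library shows. D1 nuclei held a median of 7431, 5883, 6100 and 11372.5 UMIs in C57J 1, C57J 2, nude and BALB/c, and their sums were 3452940, 950919, 481982 and 1976077 UMIs. The nude sum is thus the least precise. Between 29 and 63 barcodes were shared by any pair of libraries, at most 43 of them among nuclei kept.

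**Figure D1:**
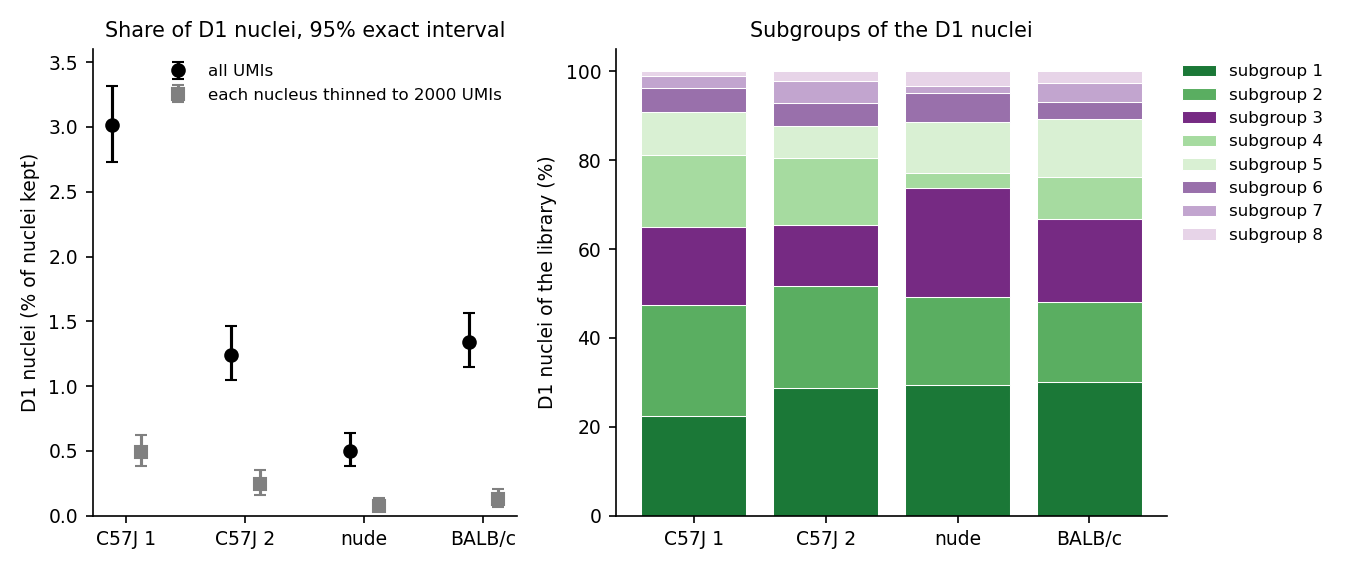
Left, D1 nuclei as a percentage of the nuclei kept in each library, with 95% exact binomial intervals, from all UMIs (circles) and after thinning each nucleus to 2000 UMIs (squares). Right, the percentage of the D1 nuclei of each library in each of 8 subgroups. C57J 1 is the highest at 3.01% and nude the lowest at 0.498%, and the subgroups drawn in purple, led by genes of other cell classes, take 25.9% to 36.1% of the D1 nuclei.

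Nuclei with at least 1 Adora2a UMI and no Drd1 UMI, under the same limits for Rarb, Pde10a and St18, are called D2 nuclei and numbered 158 and 66 for the C57J libraries, 18 for nude and 67 for BALB/c. There were 2.59, 2.11, 3.39 and 2.39 D1 nuclei per D2 nucleus in that order. As a share of D1 and D2 nuclei together, D1 nuclei ranged from 67.8% (95% exact interval 60.9% to 74.1%) in C57J 2 to 77.2% (66.4% to 85.9%) in nude, and all 4 intervals overlapped. A further 16 nuclei had both receptors, and 2414 nuclei met the Rarb, Pde10a and St18 limits with neither receptor. Of the D1 nuclei, 509 had exactly 1 Drd1 UMI.

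The values just inside and just outside each limit were as follows. The 71 nuclei with 2 Rarb UMIs had the LS marker Trpc4 at 597 CPM (UMIs of a gene per 1000000 UMIs of the summed nuclei), and the 123 excluded nuclei with 1 Rarb UMI had it at 603 CPM. At the Pde10a limit, 61 nuclei had 3 UMIs and 80 excluded nuclei had 2, with Trpc4 at 332 and 189 CPM. Tac1 was at 133 CPM in nuclei with 1 Drd1 UMI and at 53.7 CPM in the 2414 nuclei with none. The Adora2a limit excluded 6 nuclei with 1 UMI, and the St18 limit kept 23 nuclei with 2 UMIs and excluded 6 with 3.

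D1 nuclei carried the marker genes of direct pathway neurons, at levels that varied between libraries. Tac1 was at 151, 119, 85.1 and 218 CPM (levels are listed in the order C57J 1, C57J 2, nude, BALB/c from here on), against 39.3, 24.3, 6.79 and 82.6 CPM in D2 nuclei. LS nuclei (Trpc4 at least 3, Dgkg at least 2 and no Rarb UMI; 13934 nuclei) had 11.9, 6.41, 4.84 and 6.36 CPM of Tac1. Each library placed D1 nuclei above D2 nuclei for this peptide gene, and BALB/c was the highest and nude the lowest in both classes. Pdyn, the dynorphin precursor, was at 53.0, 26.3, 20.7 and 61.7 CPM in D1 nuclei and at no more than 11.5 CPM in D2 nuclei. The transcription factor Isl1 was at 38.5, 33.7, 33.2 and 30.9 CPM in D1 nuclei and at 5.90 to 13.6 CPM in D2 nuclei. Ebf1, another transcription factor of D1 neurons, was at 46.9, 25.2, 58.1 and 42.0 CPM, above the D2 nuclei of the same library in all 4 libraries.

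Other markers listed for the class were scarce or went the other way. The muscarinic receptor gene Chrm4 was at 0.506 to 4.15 CPM and Slc35d3 at 0 to 8.41 CPM in D1 nuclei, too few UMIs for the strain test. Eya1 was lower in D1 nuclei (7.59 to 12.4 CPM) than in D2 nuclei (13.6 to 21.6 CPM) in each library. Genes of the indirect pathway were low. Drd2 was at 26.4, 13.7, 16.6 and 4.55 CPM in D1 nuclei and at 358, 343, 414 and 371 CPM in D2 nuclei. LS nuclei held 39.7 to 47.3 CPM of Drd2, more than D1 nuclei did. Penk, the enkephalin precursor, was at 28.1, 26.3, 31.1 and 45.0 CPM in D1 nuclei and at 109 to 302 CPM in D2 nuclei. Gpr6, Sp9, Gpr52 and Grik3 completed the D2 list, and the kainate receptor gene Grik3 was the most abundant of them at 76.9 to 98.9 CPM, below the D2 nuclei of each library. The choice of D1 and D2 nuclei by Drd1 and Adora2a fixes part of these differences, so no test was made.

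All 11 shared striatal markers were above LS nuclei in each library. Foxp1, a transcription factor of striatal projection neurons, was at 1026, 994, 1120 and 1279 CPM in D1 nuclei. It was at 1987 to 2398 CPM in D2 nuclei and at 325 to 345 CPM in LS nuclei, so D1 nuclei lay between the other classes in each library. Meis2, a homeobox gene, was at 1592 to 1803 CPM in D1 nuclei, against 792 to 883 CPM in LS nuclei. Bcl11b was at 276 to 350 CPM in D1 nuclei, above D2 nuclei in each library. The regulator of G protein signalling Rgs9 was at 272, 231, 156 and 217 CPM, below D2 nuclei in each library, and at 22.1 to 33.9 CPM in LS nuclei. Six3 was at 26.3 to 39.0 CPM, Ano3 at 232 to 273 CPM and Pde1b at 80.9 to 103 CPM. The Drd1 cascade itself was present, with Gnal at 410 to 513 CPM, Adcy5 at 243 to 308 CPM and the phosphatase inhibitor Ppp1r1b (DARPP-32) at no more than 48.9 CPM. CPM are not corrected for gene length, so they compare classes for 1 gene and not RNA amounts between genes. Genes described as most abundant had the highest CPM, with no such correction.

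**Figure D2:**
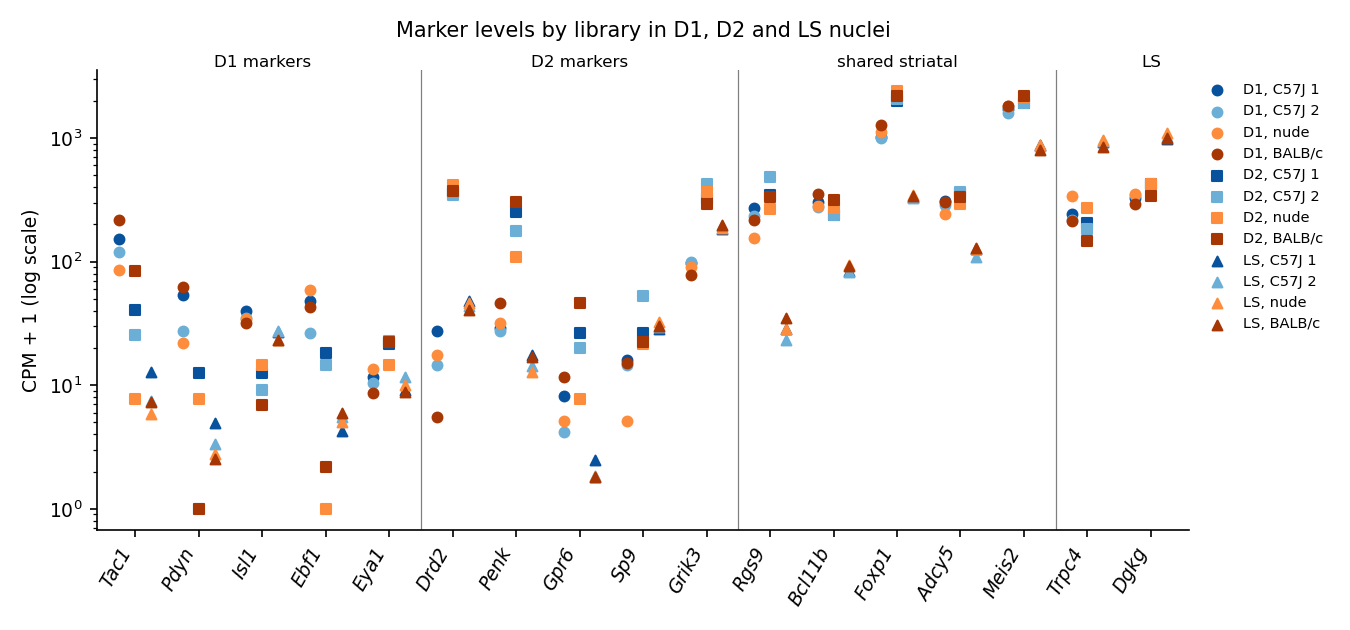
CPM plus 1 on a log axis for D1, D2, shared striatal and LS markers, with 1 point per library and class (circles D1, squares D2, triangles LS nuclei; colour gives the library). Tac1 and Pdyn are highest in D1 nuclei and Drd2 and Penk in D2 nuclei, while Trpc4 in D1 nuclei lies at 211 to 338 CPM, below the 848 to 954 CPM of LS nuclei.

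Further genes differed between D1 nuclei and the other classes. The opioid receptor gene Oprm1 was at 111, 135, 154 and 178 CPM in D1 nuclei, above D2 and LS nuclei in each library. Drd3 was at 45.2 to 57.6 CPM in D1 nuclei and at 0 to 14.7 CPM in D2 nuclei. Adarb2 was at 1018 to 1092 CPM, against 130 to 238 CPM in D2 nuclei, but it was uneven among D1 nuclei, at 3714 CPM in subgroup 2 and 236 CPM in subgroup 1 of those described below. The retinoid X receptor gene Rxrg was at 39.4 to 79.9 CPM in D1 nuclei and at no more than 4.47 CPM in LS nuclei. The GABA synthesis gene Gad1 went the other way. It was at 189 to 243 CPM in D1 nuclei, below D2 and LS nuclei in each library. The 18 listed GABA synthesis and receptor genes summed to 7714 to 8649 CPM in D1 nuclei. That was above LS nuclei (7282 to 7811 CPM) in each library. Among the most abundant channel and receptor genes of D1 nuclei were Kcnip4 (3498 to 4030 CPM), Kcnq5 (3156 to 3810 CPM), Kcnd2 (2901 to 3473 CPM), Grm5 (3053 to 4025 CPM), Grm7 (2979 to 3445 CPM) and the adhesion gene Nrxn3 (8913 to 9764 CPM).

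Genes of other cell classes were present in D1 nuclei as well. The summed level of 9 LS markers was 732, 734, 824 and 619 CPM in C57J 1, C57J 2, nude and BALB/c, against 2097 to 2365 CPM in LS nuclei. All 9 had a UMI in each library except Ddr2, at 0 in BALB/c, and Dgkg was the most abundant at 290 to 353 CPM. Oligodendrocyte markers summed to 500, 491, 438 and 313 CPM in D1 nuclei and to 264 to 416 CPM in LS nuclei, with all 5 detected. Astrocyte markers summed to 373 to 550 CPM in D1 nuclei and to 339 to 556 CPM in LS nuclei, led by the glutamate transporter gene Slc1a2. Slc1a2 had a UMI in 32.5% to 49.9% of D1 nuclei thinned to 2000 UMIs and in 36.3% to 53.9% of LS nuclei, a like share in both neuron classes. Free RNA was not measured, so its part in these shares was not tested. In the same thinned nuclei Tac1 had a UMI in 20.9% to 31.9% of D1 nuclei and in 0.994% to 2.48% of LS nuclei. Without thinning, Slc1a2 was in 74.8% to 87.5% and Tac1 in 36.1% to 64.4% of D1 nuclei. Interneuron markers summed to 32.4, 44.2, 51.9 and 170 CPM in D1 nuclei, led by Sst, against 35.9 to 52.2 CPM in LS nuclei. In BALB/c the 149 Npy UMIs came from 9 nuclei and 65 of them from 1. Oligodendrocyte precursor markers summed to 42.3 to 68.5 CPM in D1 nuclei and 21.1 to 28.3 CPM in LS nuclei, led by Vcan. Microglia, vascular, cholinergic and glutamatergic markers each summed to no more than 18.8 CPM in the D1 nuclei of any library, and the vascular gene Cldn5 was at 0 in all 4.

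Clustering of the D1 nuclei on their own genes gave 8 subgroups, described here by their leading genes with no test, since these genes formed them. Subgroup 1 (198 nuclei, 25.7%) was led by Kctd8, Gm14133, Necab1, Dcdc2a and Sv2b, with Kctd8 at 583 CPM against 150 CPM in the other D1 nuclei. It had the highest Tac1 of the 8 subgroups at 315 CPM, the highest Foxp1 at 2197 CPM and the highest Drd3 at 101 CPM. Of 7 listed markers of ventral and medial striatum, Crym (187 CPM) and Stard5 (230 CPM) were highest in subgroup 1. The thyrotropin releasing hormone receptor gene Trhr was at 141 CPM here and 168 CPM in subgroup 5, where Dlk1 (92.3 CPM), Wfs1 (79.3 CPM) and Cartpt (220 CPM) were also highest, and Nnat was highest in subgroup 2 at 352 CPM. Of 5 listed matrix markers, Sv2b (277 CPM) and Rasgrp2 (17.0 CPM) were highest in subgroup 1. Epha4, Id4 and Gda were at 254, 26.1 and 164 CPM here. They were highest in subgroups 6 (259 CPM), 7 (64.7 CPM) and 5 (233 CPM) in that order.

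Subgroup 2 (175 nuclei, 22.8%) was led by Vwc2l, Otof, Gm40663, Adarb2 and Thsd7b. Otof, Casz1 and Adarb2 are markers of the eccentric projection neurons, a striatal type set apart from the classical D1 and D2 neurons, and all 3 were among its 10 leading genes, so the subgroup is called eccentric-like. Of the 7 listed markers of that type, these 3 and Pcdh8 (50.9 CPM) were highest in subgroup 2. Col11a1 was at 92.5 CPM there and at 127 CPM in subgroup 4, Cacng5 at 38.2 CPM there and at 59.3 CPM in subgroup 6, and Tpbg was at no more than 6.81 CPM in any subgroup. Adarb2 was at 3714 CPM against 502 CPM in the other D1 nuclei, and Foxp2 at 4022 against 655 CPM. Isl1 and Ebf1 were at only 4.24 and 3.40 CPM in this subgroup, Foxp1 at 487 CPM and Sv2b at 7.64 CPM. Of the 6 listed D2 markers, Penk (88.3 CPM), Sp9 (27.2 CPM) and Gpr52 (5.09 CPM) were highest here. Grik3, Drd2 and Gpr6 were at 171, 25.5 and 2.55 CPM here. They were highest in subgroups 6 (182 CPM), 8 (29.9 CPM) and 1 (18.9 CPM) in that order. Of 8 listed striosome markers, Oprm1 (311 CPM), Tshz1 (437 CPM), Sema5b (188 CPM), Bach2 (212 CPM), Lypd1 (138 CPM) and Asic4 (43.3 CPM) were highest here. Pdyn and Kremen1, the other two, were at 17.8 and 7.64 CPM here and highest in subgroup 5, at 183 and 9.72 CPM.

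Subgroup 4 (104 nuclei, 13.5%) was led by Kcnk9, Pde11a, Npsr1, Greb1l and Hpse2 at folds of 3.63 to 4.36. Npsr1, the receptor of neuropeptide S, was at 121 CPM against 20.7 CPM elsewhere, and at 42.6 against 3.54 CPM without C57J 1. Subgroup 5 (78 nuclei, 10.1%) was led by Pde1c, Cartpt, Ebf1, Pard3b and Inhba, followed by Pdyn, Lrrk2, Baz1a, Nr4a3 and Scg2. It combined the peptide genes Cartpt (220 against 25.8 CPM), Pdyn (183 against 36.4 CPM) and Scg2 (249 against 60.5 CPM) with the activity-regulated nuclear receptor gene Nr4a3 (128 against 26.9 CPM) and the activin subunit gene Inhba (90.7 against 13.8 CPM). BALB/c supplied much of this. Of the 136 Cartpt UMIs of the subgroup, 101 were from BALB/c, and of the 79 Nr4a3 UMIs, 49 were from 6 BALB/c nuclei. Without BALB/c the levels in subgroup 5 and in the other D1 nuclei were 92.4 and 26.6 CPM for Cartpt, 135 and 37.1 CPM for Pdyn, 132 and 47.9 CPM for Scg2, 79.2 and 24.2 CPM for Nr4a3 and 21.1 and 15.8 CPM for Inhba. Without C57J 1 subgroup 5 held Cartpt at 333, Nr4a3 at 201 and Inhba at 149 CPM. Of the 9 leading genes of subgroup 5 with a promoter in RefSeq, Cartpt and Scg2 held TGACGTCA, in 2 of the 13 promoters of these genes, against 1.79% of all promoters. It was in 0 of 9 promoters of immediate early genes and 0 of 8 of D1 markers.

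The other 4 subgroups each had at least 1 listed marker of another class among their 10 leading genes and are referred to as led by other classes. Subgroup 3 (136 nuclei, 17.7%) was led by Il1rapl2, Ndst4, Zfp804b, Npy and Nxph1, and held 149 UMIs of the interneuron gene Npy, its only such marker. Of these, 138 came from BALB/c, and without that library Npy was at 8.28 instead of 82.2 CPM. The subgroup held Trpc4 at 522 CPM, and 45.6% of its nuclei were predicted doublets, with a median of 12961 UMIs. Subgroup 6 (39 nuclei, 5.07%) was led by Cpa6, 2310002F09Rik, Col23a1, Ano2 and Adamtsl1. It had the LS genes Cpa6 at 1246 CPM, Dgkg at 1284 CPM and Trpc4 at 785 CPM, with Rgs9 at 37.6 CPM and Tac1 at 27.7 CPM. Of its nuclei 20.5% were predicted doublets, with a median of 12607 UMIs. Subgroup 7 (26 nuclei), led by Nhsl1, Mertk, Slc1a3, Rorb and Gm6145, carried astrocyte genes. Subgroup 8 (13 nuclei), led by Pdgfra, Arhgap31, Bcas1, Vcan and Gjc3, carried genes of oligodendrocyte precursors. All nuclei of subgroups 7 and 8 were predicted doublets.

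**Figure D3:**
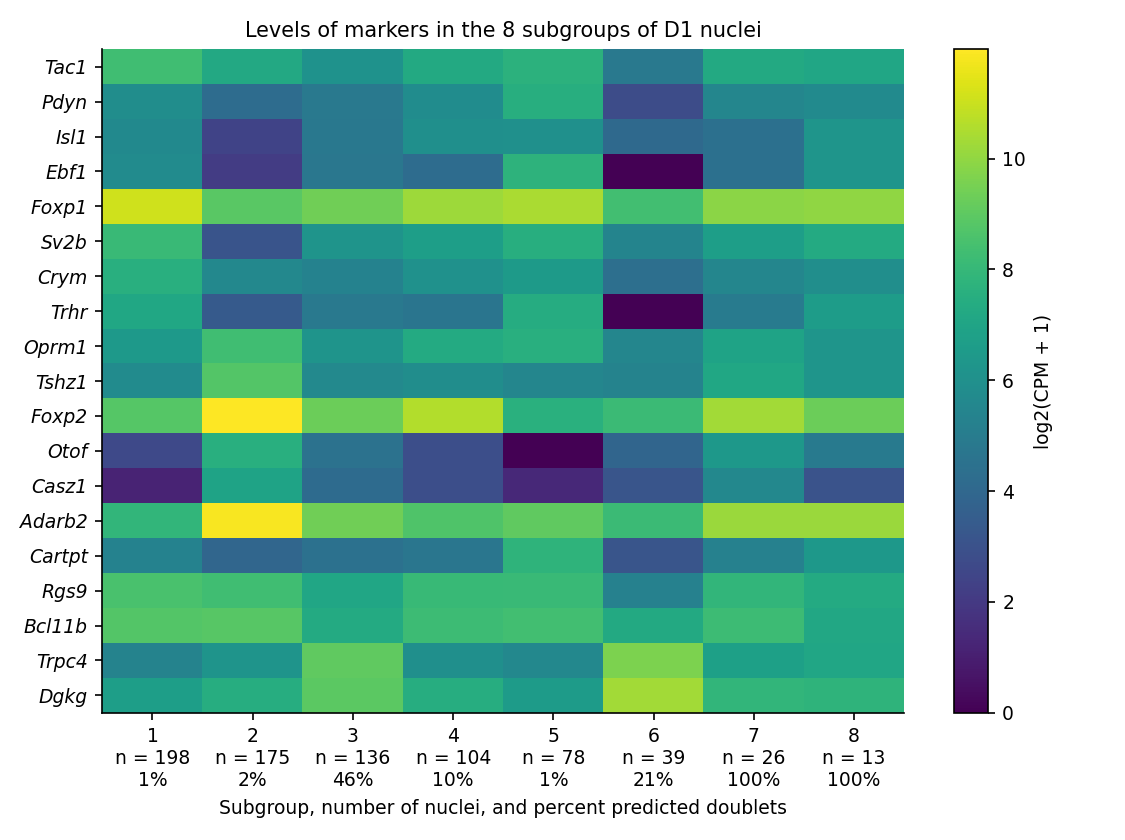
log2(CPM + 1) of 19 markers (vertical axis) in the 8 subgroups of D1 nuclei (horizontal axis, with number of nuclei and rounded percentage of predicted doublets). Subgroup 1 is highest for Tac1 and Foxp1, subgroup 2 for Adarb2, Otof and Foxp2, subgroup 5 for Pdyn and Cartpt, and subgroups 3 and 6 for Trpc4 and Dgkg.

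Subgroups 1, 2, 4 and 5, with 555 of the 769 nuclei (72.2%), had no marker of another class among their 10 leading genes. The subgroups of the other 214 nuclei (27.8%) carried genes of another class, with levels of D1 and striatal genes that differed among them. Subgroup 3, with 136 of these nuclei, was placed here through Npy alone. Without BALB/c, Npy was at 8.28 CPM there and at 3.37 CPM in the other D1 nuclei. Tac1 was at 153 and 135 CPM in subgroups 7 and 8, near the 154 CPM of subgroup 4, and at 67.8 and 27.7 CPM in subgroups 3 and 6. Foxp1 was at 669 CPM in subgroup 3, above the eccentric-like subgroup 2. The 214 nuclei made up 36.1% of the D1 nuclei in nude, 29.4% in BALB/c, 26.7% in C57J 1 and 25.9% in C57J 2. Among D1 nuclei, predicted doublets made up 17.4% for C57J 1, 15.8% for C57J 2, 16.4% for nude and 14.4% for BALB/c, against 10.9%, 8.95%, 9.80% and 9.53% of all nuclei in that order. Without the 4 subgroups, the share of D1 nuclei in the same order was 2.21%, 0.920%, 0.318% and 0.948%, with the same highest and lowest library. All strain results below were also computed without these subgroups.

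Subgroup shares varied between libraries within wide intervals. Subgroup 1 held 22.5% (92 nuclei) in C57J 1, 28.8% (40) in C57J 2, 29.5% (18) for nude and 48 of 160 nuclei in BALB/c. The eccentric-like subgroup 2 held 24.9% (102) and 32 of 139 nuclei in the C57J libraries, 19.7% (12) for nude and 18.1% (29) for BALB/c. Subgroup 4 was 16.1% (66 nuclei, 95% exact interval 12.7% to 20.1%) in C57J 1 and 15.1% (21, 9.60% to 22.2%) in C57J 2. It was 3.28% (2, 0.400% to 11.3%) in nude and 9.38% (15, 5.34% to 14.99%) in BALB/c, and the BALB/c interval overlapped those of both C57J libraries. Subgroup 5 was 9.78% (40), 7.19% (10), 11.5% (7) and 13.1% (21). These differences were not tested.

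The strain comparison was between both C57J libraries and the pair of libraries of BALB origin, on UMIs summed over the D1 nuclei of each library, with the quasi-likelihood test of edgeR. Of 10423 genes tested, 23 (0.221%) passed both an adjusted p of 0.05 and a log2 fold change of 0.5 in either direction, and are said to be called. Of these, 11 were higher (0.106%) and 12 lower (0.115%) in the BALB pair. DESeq2 called 9 genes (0.0863%), and 757 genes had an unadjusted p below 0.05 (7.26%), 325 of them higher (3.12%) and 432 lower (4.14%) in the BALB pair. Without the 4 subgroups led by other classes, 40 genes were called, 16 of them among the 23. All 23 had libraries that did not overlap between backgrounds, as did 1915 genes higher (18.4%) and 1922 lower (18.4%) of all tested. Within batch 2, C57J 2 against nude and BALB/c gave 7 called genes, 5 of them among the 23, and the 20 of the 23 that could be tested kept their direction.

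Genes lower in the BALB pair included several with hardly a UMI there. Gm17167, a noncoding transcript at chr4:42206998-42235313, had 55, 9, 0 and 0 UMIs in C57J 1, C57J 2, nude and BALB/c, which is at least 11.9-fold lower (3 UMIs allowed over both libraries; edgeR adjusted p = 0.0387). Gm9989 (chr3:81918008-81924463) had 75, 22, 0 and 2 UMIs, 27.1-fold more per UMI in the C57J libraries (95% counting interval 7.29 to 227; edgeR adjusted p = 0.0097). The chemokine gene Ccl27a (chr4:41769467-41774247) had 71, 9, 0 and 2 UMIs and a ratio of 22.3 (5.98 to 188; edgeR adjusted p = 0.048). Ccl27a has near-identical copies nearby, so its counts are uncertain. The mucin gene Muc3a (chr5:137208813-137212389) had 68, 10, 0 and 2 UMIs and a ratio of 21.8 (5.83 to 183; edgeR adjusted p = 0.0462).

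Better measured genes fell as well. 1500004A13Rik, a noncoding transcript at chr3:88782943-88832547, was at 106, 125, 14.5 and 12.1 CPM (log2 fold change -3.17 ± 0.24 SE, edgeR adjusted p = 7.13e-05). Ulk4 (chr9:120955351-121277197), of a kinase-like family, was at 145, 137, 31.1 and 42.0 CPM (log2 fold change -1.87 ± 0.19 SE, edgeR adjusted p = 0.0011). Both backgrounds were tight around their means for these genes, with no overlap. Fggy, a carbohydrate kinase gene, had 143, 58, 7 and 25 UMIs (log2 fold change -1.90 ± 0.31 SE, edgeR adjusted p = 0.0387). Aim2, a sensor of cytosolic DNA, was at 35.9, 40.0, 14.5 and 10.1 CPM (log2 fold change -1.75 ± 0.31 SE, edgeR adjusted p = 0.048). The ribosomal protein gene Rpl26, which has processed copies in the genome, was at 44.0, 45.2, 10.4 and 16.2 CPM. Without the 4 subgroups the log2 fold changes of Fggy, Aim2 and Rpl26 were -1.43, -1.69 and -1.43. They were then not called (edgeR adjusted p = 0.223, 0.0501 and 0.0859), nor were they by DESeq2 over all D1 nuclei (DESeq2 adjusted p = 0.102, 0.473 and 0.383). Outside the rule for naming genes, the remaining genes called lower were Gm49906 and Iqgap2. Iqgap2, a scaffold gene, was at 142, 145, 64.3 and 74.9 CPM.

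Gm49906 and Npsr1 differ from the other fallen genes in where they were found. Gm49906, a noncoding gene at chr17:50339252-50398475, was at 174, 133, 64.3 and 60.2 CPM in D1 nuclei and at 40.8 to 110 CPM in D2 nuclei, but at only 1.88 to 3.50 CPM in LS nuclei (log2 fold change in D1 nuclei -1.36 ± 0.19 SE, edgeR adjusted p = 0.0186). Npsr1 (chr9:24097996-24316398) was at 57.1, 17.9, 0 and 3.54 CPM in D1 nuclei, from 197, 17, 0 and 7 UMIs (log2 fold change -3.90 ± 0.67 SE, edgeR adjusted p = 0.0462). The C57J libraries also differed from each other, and DESeq2 gave an adjusted p of 0.849. The log2 fold change was -2.66 without C57J 1 (edgeR adjusted p = 0.574) and -9.12 without BALB/c, where the nude library at 0 UMIs stood alone (edgeR adjusted p = 0.164). LS nuclei held 2.42 to 2.83 CPM of Npsr1 in every library. D2 nuclei held 4.09, 2.70, 0 and 7.08 CPM of Npsr1, the most in BALB/c. The strain effect in D1 nuclei minus that in D2 nuclei was -4.65 (edgeR adjusted p = 0.0643). The Npsr1 UMIs of D1 nuclei came from 37, 4, 0 and 4 nuclei, and up to 21 were in 1 nucleus. By subgroup, 95 Npsr1 UMIs were in subgroup 4, 67 in subgroup 2 and 43 in subgroup 3. Subgroup 4 held 2 of the 61 D1 nuclei in nude and 15 of the 160 in BALB/c, and its 15 BALB/c nuclei held 0 Npsr1 UMIs. How far the subgroup shares enter this difference was not tested.

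Of the genes higher in the BALB pair, Cfap54 (chr10:92775619-93081618), of the cilium axoneme, was at 79.9, 71.5, 338 and 330 CPM (log2 fold change 2.11 ± 0.15 SE, edgeR adjusted p = 7.13e-05). Dnah6, an axonemal dynein gene, was at 4.63, 4.21, 20.7 and 25.3 CPM. Zfp808 (chr13:62129886-62236144), of a large zinc finger family with similar copies, was at 10.4, 8.41, 45.6 and 53.1 CPM (log2 fold change 2.34 ± 0.28 SE, edgeR adjusted p = 0.00606). Mpp7, a scaffold gene of cell junctions, was at 18.8, 29.4, 51.9 and 99.7 CPM. The ubiquitin ligase gene Rnf121 was at 47.8, 58.9, 122 and 119 CPM. BC005561, 6030458C11Rik and Lrrc9 also rose, by log2 1.04, 1.51 and 1.69. Btbd9, the remaining called gene and outside the naming rule, was at 244, 253, 461 and 404 CPM. Without the 4 subgroups Mpp7 and Btbd9 were not called (edgeR adjusted p = 0.0585 and 0.0537), at log2 fold changes of 1.84 and 0.77.

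Further rises started from almost nothing. Gm36684 (chr17:13330748-13333842, noncoding) had 0, 0, 6 and 30 UMIs, which is at least 21.5-fold higher (3 UMIs allowed over both C57J libraries; edgeR adjusted p = 0.0196). 4930520O04Rik (chr9:114368303-114377229) had 2, 0, 6 and 30 UMIs, 32.2-fold more per UMI in the BALB pair (95% counting interval 8.30 to 276; edgeR adjusted p = 0.031). 1500004A13Rik, Ulk4 and Cfap54 were called in every one of the alternatives tried.

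**Figure D4:**
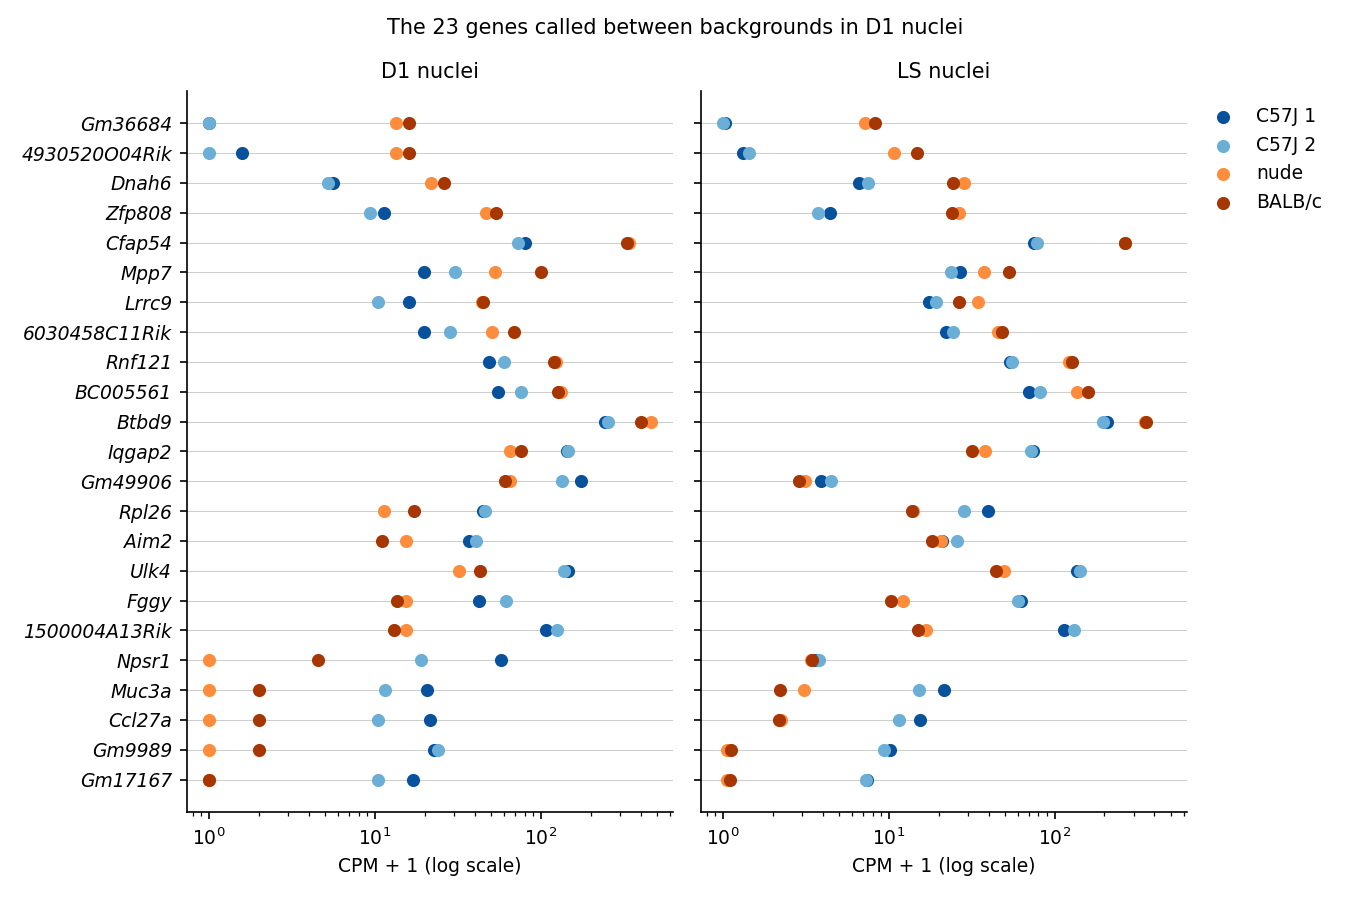
CPM plus 1 on log axes for the 23 genes called between backgrounds in D1 nuclei (left) and the same genes in LS nuclei (right), with 1 point per library. In D1 nuclei the nude and BALB/c points lie on 1 side of both C57J points for every gene. In LS nuclei Npsr1 is at 2.42 to 2.83 CPM in all libraries.

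The same genes were then read in the other classes. The difference between the strain effects in D1 and LS nuclei was tested for all 23, and it passed the thresholds for Aim2, Mpp7 and Npsr1 in edgeR and for 0 in DESeq2. For Mpp7 the difference was 1.01, and 0.93 without the 4 subgroups (edgeR adjusted p = 0.0954). With each library left out in turn it was -1.60 to -1.34 for Aim2, 0.48 to 1.24 for Mpp7 and -12.3 to -2.45 for Npsr1, with edgeR adjusted p up to 0.632, 1 and 0.802. Against D2 nuclei it passed for 0 of the 23 in edgeR, and a missed threshold does not show equal effects. 1500004A13Rik was at 114, 129, 15.8 and 13.9 CPM in LS nuclei and Cfap54 at 74.4, 77.3, 264 and 264 CPM, close to their D1 levels in each library.

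None of the genes in the 36 lists drawn up for these neurons was called. The lists held 333 genes besides those of the rule, 266 of them with enough UMIs to test. Of the 266, 0 were called by edgeR, 0 by DESeq2, and 45 (16.9%) had an unadjusted p below 0.05 in edgeR, against 7.26% of all genes. The lists were chosen with earlier results of these data known, so these shares are not a test. One list holds neuronal genes named in the paper, and of its 14 tested genes 3 were higher and 3 lower at that p. The median log2 fold change of the 266 was 0.01 and of all genes 6.10e-05. Without the 4 subgroups led by other classes, 6 list genes were called, namely Cartpt, Cpne4, Kcnh7, Kcnq3, Oprk1 and Slit1, where 0.449% of all genes were.

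Of the dopamine cascade genes, 0 were called by edgeR or DESeq2. All 22 were tested, with a median log2 fold change of 0.05. Each gene also has a lowest and a highest log2 fold change over the fits that left out each library in turn. The medians of these lowest and highest values over a list are called its leave-out range, and no single fit need have them as its median. For the cascade genes the leave-out range was -0.075 to 0.19. The phosphodiesterase gene Pde4b was at 2469, 2119, 2058 and 2493 CPM and Pde4d at 956, 989, 905 and 1011 CPM. Arpp21, a substrate of protein kinase A in striatal neurons, was at 933, 961, 1042 and 1019 CPM. The D1, D2 and shared striatal markers had median log2 fold changes of 0.16, -0.29 and 0.09, with 5, 5 and 11 genes tested. These medians were 0.42, -0.69 and 0.16 without the 4 subgroups. The leave-out ranges of these lists were -0.45 to 0.64, -0.36 to -0.058 and -0.059 to 0.24 in the same order. No marker of glia was called by edgeR or DESeq2. Oligodendrocyte markers had a median of -0.43 over 4 tested (-0.59 without the 4 subgroups), 3 of them lower in the BALB pair with no overlap. Astrocyte markers had a median of -0.50 over 4 (-1.13 without the 4 subgroups), with 2 lower with no overlap. Of all genes, 18.4% were lower with no overlap and 18.4% higher. Oligodendrocyte precursor markers went the other way, with a median of 0.39 over 2 tested (0.076 without the 4 subgroups), 2 of them higher with no overlap. The part of these glial markers in the differences between backgrounds was not tested. Of the 22 cascade genes, 6 were higher and 3 lower in the BALB pair with no overlap between backgrounds, against 18.4% of all genes in each direction.

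Among receptors, the kappa opioid receptor gene Oprk1, whose ligand dynorphin is made from Pdyn, was at 55.6, 52.6, 22.8 and 23.8 CPM, from 192, 50, 11 and 47 UMIs. The libraries of each background lay close together and did not overlap with the others (log2 fold change -1.22 ± 0.24 SE, edgeR adjusted p = 0.0655), just outside the threshold. Without the 4 subgroups the edgeR adjusted p of Oprk1 was 0.0363. Oprm1, the mu opioid receptor gene, was at 111, 135, 154 and 178 CPM (log2 fold change 0.48 ± 0.16 SE, edgeR adjusted p = 0.472). The 7 tested peptide and opioid receptor genes had a median log2 fold change of -0.26, which turned to 0.13 without the 4 subgroups. Their leave-out range was -1.004 to 0.011. The neuropeptide genes had a median of 0.55 over 8 tested, 4 of them higher in the BALB pair with no overlap (18.4% of all genes were). That median was 0.36 without the 4 subgroups, and the leave-out range of the list was 0.20 to 1.05. Cartpt was at 36.2, 14.7, 33.2 and 71.9 CPM, with the libraries of the backgrounds overlapping, and rose without the 4 subgroups (edgeR adjusted p = 0.0363). Sst was at 25.8, 34.7, 37.3 and 88.1 CPM (edgeR adjusted p = 0.152), and 60 of the 174 Sst UMIs of BALB/c were in 1 nucleus. Serotonin receptor genes had a median of 0.07 over 6 tested, which turned to -0.23 without the 4 subgroups. The leave-out range of that list was -0.24 to 0.47. The most abundant of these genes, Htr2c, was at 679, 556, 649 and 729 CPM.

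List medians of channel, receptor and adhesion genes lay on both sides of that of all genes. Potassium channels had a median log2 fold change of 0.06 over 25 tested, sodium, calcium and HCN channels -0.02 over 23, ionotropic glutamate receptors -0.11 over 14, GABA genes -0.09 over 18 and axon guidance and adhesion genes -0.09 over 29. The leave-out range of each of these lists spanned both signs, as did that of all genes (-0.22 to 0.21). Such a range joins the extremes of each gene, so it is wider than the medians of single fits. The median of all genes itself was -0.012 to 0.014 in those fits. Acetylcholine receptors had a median of 0.22 over 5 and a leave-out range of -0.12 to 0.59. Of the dopamine receptors Drd2 was at -1.59 (edgeR adjusted p = 0.449) and Drd3 at 0.0078. The potassium channel gene Kcnq3, chosen after its values were seen, was at 563, 652, 386 and 410 CPM (edgeR adjusted p = 0.102). Slit1, an axon guidance ligand chosen in the same way, was at 66.0, 73.6, 143 and 108 CPM (edgeR adjusted p = 0.135). Without the 4 subgroups both were called. Gene sets of striosome, matrix and eccentric neurons had medians of 0.08, 0.05 and -0.10 over 8, 5 and 6 genes. Retinoic acid genes had a median of -0.49 over 4 tested (-0.65 without the 4 subgroups), with 0 called. Of the 4, 3 were lower in the BALB pair with no overlap, as were 18.4% of all genes. Striatal transcription factors had a median of 0.11 over 22 and a leave-out range of -0.25 to 0.27. Foxp2 was at 1403, 1193, 963 and 1023 CPM (edgeR adjusted p = 0.437). Cytokine receptor and MHC class I genes had a median of 0.08 over 9 tested and a leave-out range of -0.24 to 0.30. Il6st was at 19.7, 17.9, 22.8 and 25.3 CPM.

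Immediate early genes are transcribed by neurons within minutes of activity, and 0 were called. Of 10 tested, 9 were higher in the BALB pair with no overlap between backgrounds (18.4% of all genes were), 8 had an unadjusted p below 0.05 in edgeR (3.12% of all genes were higher at that p), and 0 were called by DESeq2. Their median log2 fold change was 0.96, and 1.04 without the 4 subgroups. The leave-out range of the list, the medians of each gene's lowest and highest value with a library left out, was 0.50 to 1.52. Egr1 was at 48.1, 43.1, 56.0 and 108 CPM (log2 fold change 0.95 ± 0.25 SE, edgeR adjusted p = 0.203). Junb was at 17.4, 15.8, 22.8 and 52.1 CPM (1.32 ± 0.33 SE, edgeR adjusted p = 0.167). Nr4a3 was at 31.3, 11.6, 41.5 and 54.7 CPM (1.01 ± 0.34 SE, edgeR adjusted p = 0.465). Fosb was at 5.21, 0, 24.9 and 15.2 CPM, from 18, 0, 12 and 30 UMIs. Of the 12 Fosb UMIs of nude, 8 were in 1 nucleus of subgroup 8, and subgroups 1 to 4 held 0, while 13 of the 30 BALB/c UMIs were in 2 nuclei of subgroup 1. Homer1, the most abundant of the list, was at 363, 226, 315 and 305 CPM, and the backgrounds overlapped.

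Summed over the whole list, immediate early genes were at 565, 349, 633 and 687 CPM in D1 nuclei. Without Homer1, immediate early genes were at 202 and 123 CPM in the D1 nuclei of C57J 1 and C57J 2 and at 317 and 382 CPM in those of nude and BALB/c. The same sum in LS nuclei was 201, 172, 158 and 237 CPM in these libraries, and there nude was the lowest. In D2 nuclei it was 206, 267, 40.8 and 295 CPM, with only 6 UMIs in nude. For 3 genes of the list the strain effect was higher in D1 than in LS nuclei, as it was for 0.212% of all genes. Nr4a3 differed by log2 1.06 ± 0.26 SE (edgeR adjusted p = 0.017), and by 1.01 without the 4 subgroups (edgeR adjusted p = 0.0953). Junb differed by 1.04 ± 0.27 SE (edgeR adjusted p = 0.0304, and 0.0432 without the 4 subgroups). Egr3 differed by 1.05 ± 0.27 SE (edgeR adjusted p = 0.026), by 1.03 without the 4 subgroups (edgeR adjusted p = 0.158) and by 0.83 with predicted doublets removed (edgeR adjusted p = 0.517). When each library was left out in turn, the largest edgeR adjusted p of each of the 3 ranged from 0.693 to 0.955, and DESeq2 called 0.

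**Figure D5:**
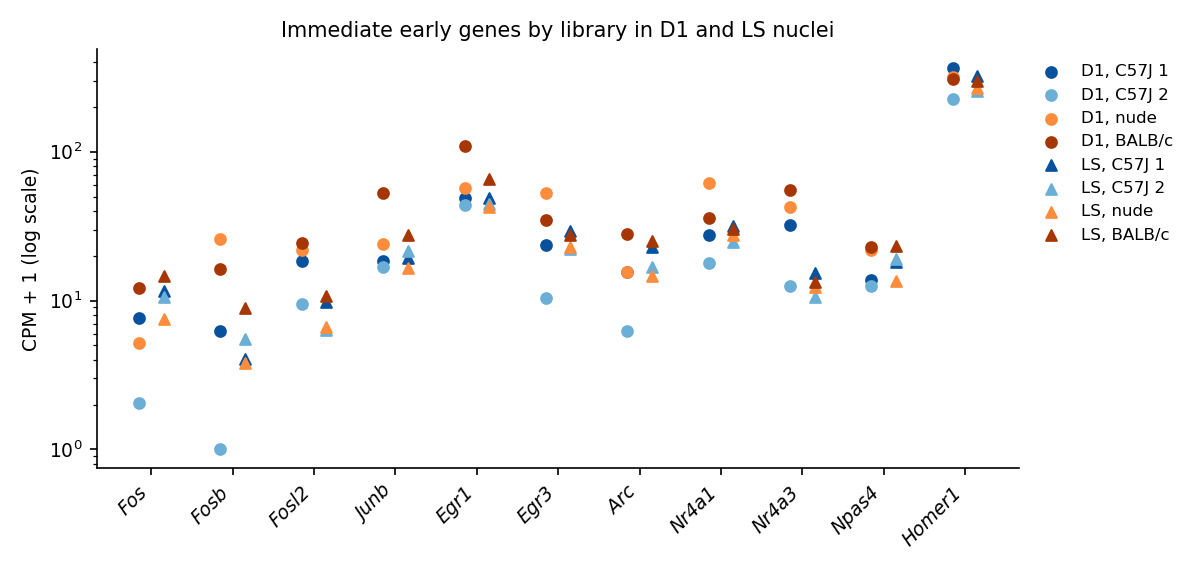
CPM plus 1 on a log axis for 11 immediate early genes in D1 nuclei (circles) and LS nuclei (triangles), with 1 point per library and colour giving the library. In D1 nuclei the nude and BALB/c points of 9 genes lie above both C57J points, while Fos (not tested) and Homer1 overlap.

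The strain effects of D1 and D2 nuclei were compared in 1 fit of 8 sums with the library as a block. Of 9665 genes, 9 passed (0.0931%) in edgeR, 6 with a lower effect in D1 nuclei (0.0621%) and 3 with a higher one (0.031%). DESeq2 called 0, and 457 genes had an unadjusted p below 0.05 in edgeR. The D2 sum of nude came from 18 nuclei. Foxp2 passed with predicted doublets removed as well (edgeR adjusted p = 5.61e-06, and 0.00364 without doublets). It was at 1403, 1193, 963 and 1023 CPM in D1 nuclei and at 362, 248, 781 and 511 CPM in D2 nuclei, so the nude and BALB/c levels lay below C57J in D1 nuclei and above it in D2 nuclei. Against LS nuclei, 68 of 17019 genes passed (0.4%). Of these, 36 had a higher effect in D1 nuclei (0.212%) and 32 a lower one (0.188%), while DESeq2 called 0. Without the 4 subgroups, 93 passed, 45 of them among the 68.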

How the data were processed

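The authors dissected the tissue, isolated nuclei on a sucrose gradient and sequenced them, and used Cell Ranger 7.0.1 with the mm10 genome. They deposited raw UMI counts per gene and nucleus for 4 libraries, not normalized. Counting of intronic reads is not given in the sources used here. The libraries held 102939576, 72912922, 82169638 and 125998527 UMIs in 17025, 14092, 14697 and 12558 barcodes.

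The members and the 36 gene lists were chosen with earlier results of these data known. UMIs were summed per library and class, and fitted with edgeR 4.0.16 (filterByExpr, TMM, quasi-likelihood F test, Benjamini-Hochberg over all genes tested) in R 4.3.3. An SE is the absolute log2 fold change divided by the square root of the F statistic, so it adds nothing to the fold change and its test. The 5 genes of the rule stayed in the fits and in the adjustment, but are left out of every count of tested or called genes. Named genes were, among called genes without overlap, the top 10 in each direction by fold change, the 3 most abundant members of each list, the class markers (some are not reported here), the 3 called genes with the largest difference in each direction of a comparison of classes, and the 5 leading genes of each subgroup. Doublets were predicted per library from simulated pairs on 30 components, at 0.8% per 1000 nuclei, and kept unless stated. Subgroups came from Leiden clustering in scanpy 1.11.5 (2000 genes, 20 components centred per library, 15 neighbours, resolution 0.5), and leading genes were ranked by fold with 10 CPM added. Intervals are exact Clopper-Pearson 95% intervals. The tests were tried on simulated data. DESeq2 1.42.0, other normalization, filters, thinning, stricter limits and leaving out each library were alternatives. Leaving out the subgroups led by other classes, and the permutation test of the shares, were added after the data were seen. Gene positions come from the GENCODE vM21 annotation of GRCm38.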

Additional observations from a re-analysis of the deposited data

Results flagged for a closer look

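The strain effect is the log2 difference of the nude and BALB/c libraries from the C57J libraries, and genes were singled out where its difference between 2 classes of nuclei passed the edgeR test. All 14 results below were noted for that reason.

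Between D1 and D2 nuclei 9 genes passed. The effect in D1 nuclei was lower for Mir670hg, a microRNA host gene, by a difference of -1.91 (edgeR adjusted p = 0.000853), for the semaphorin gene Sema3e by -1.85 (edgeR adjusted p = 0.00208) and for the dopamine receptor gene Drd2 by -1.79 (edgeR adjusted p = 0.0478). Sema3e was at 83.1, 54.7, 37.3 and 80.5 CPM in D1 nuclei and at 33.5, 40.5, 27.2 and 146 CPM in D2 nuclei of C57J 1, C57J 2, nude and BALB/c. Drd2 helps to tell D1 from D2 neurons, and its difference was -2.22 without the subgroups led by other classes (edgeR adjusted p = 0.419). The effect was higher in D1 nuclei for the adhesion gene Kirrel3 by 0.78, for the netrin receptor gene Unc5d by 0.85 and for the glutamate receptor gene Grm8 by 1.43 (edgeR adjusted p = 0.0221, 0.0154 and 0.000266). Without those subgroups the difference of Unc5d was 0.24 (edgeR adjusted p = 1) and that of Kirrel3 0.73 (edgeR adjusted p = 0.114). With predicted doublets removed the differences were -2.01 for Mir670hg, -2.001 for Sema3e, -1.62 for Drd2, 0.64 for Kirrel3, 0.84 for Unc5d and 1.17 for Grm8, and none of the 6 passed (edgeR adjusted p = 0.199 to 0.897). When each library was left out in turn, the difference was -2.42 to -0.94 for Mir670hg, -2.05 to -0.66 for Sema3e, -2.41 to -0.72 for Drd2, 0.59 to 1.06 for Kirrel3, 0.73 to 1.05 for Unc5d and 1.21 to 1.51 for Grm8, each with its largest edgeR adjusted p between 0.17 and 0.999. DESeq2 called 0 of the 9.

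Between D1 and LS nuclei 68 genes passed. The effect in D1 nuclei was lower for Gm29536 by -4.99, for the phospholipase gene Plcz1 by -3.97 and for Npsr1 by -3.73 (edgeR adjusted p = 0.00946, 4.07e-06 and 9.6e-08). Plcz1 was at 12.5, 15.8, 2.07 and 2.02 CPM in D1 nuclei and at 1.63, 1.51, 5.48 and 3.21 CPM in LS nuclei. When each library was left out in turn, the difference was -12.3 to -2.45 for Npsr1 (edgeR adjusted p up to 0.802), -10.7 to -4.19 for Gm29536 (up to 0.963) and -4.57 to -3.78 for Plcz1 (up to 0.00611). Gm29536 rests on 9, 10, 0 and 1 UMIs in D1 nuclei. The effect was higher in D1 nuclei for Gm31333 by 2.31, for the oligodendrocyte lineage receptor gene Gpr17 by 2.63 and for the amino acid transporter gene Slc7a2 by 2.90 (edgeR adjusted p = 0.0289, 0.0229 and 7.58e-05). Slc7a2 was at 3.76, 3.15, 8.30 and 25.3 CPM in D1 nuclei and at 2.73 to 4.05 CPM in LS nuclei, and the difference was 1.41 to 3.28 without 1 library (edgeR adjusted p up to 0.955). It was 2.02 to 2.46 for Gm31333 (up to 0.999) and 2.38 to 3.00 for Gpr17 (up to 1). Gpr17 is a leading gene of subgroup 8, and without the subgroups led by other classes its difference was 0.51 (edgeR adjusted p = 1).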

How the results depend on the processing

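No paired analysis was possible because the labels give no replicate numbers that C57J, nude and BALB/c libraries share. Pooled animals, 1 library of nude, 1 of BALB/c and 1 C57J library in another batch limit all strain results, and low UMI sums limit rare genes. The cause of the changes below was not tested. The 23 genes called between backgrounds became 9 with DESeq2, 146 with no filter, 5 after thinning, 9 with stricter limits and 40 without the subgroups led by other classes, an alternative chosen after seeing the data. They became 6 to 131 when each library was left out in turn: 6 without BALB/c, 7 without C57J 1, 123 without nude and 131 without C57J 2, where the lone library of a background is assumed to vary like the others. The 9 genes that differed between D1 and D2 nuclei became 0 with DESeq2, 1 after thinning, 2 with doublets removed, 4 with stricter limits and 4 to 30 without 1 library (4 without C57J 1, 30 without nude, 19 without BALB/c). The 68 between D1 and LS nuclei became 0 with DESeq2 (247 at an unadjusted p below 0.05), 9 after thinning, 13 with stricter limits and 14 to 102 without 1 library (14 without C57J 1, 32 without C57J 2, 30 without BALB/c). DESeq2 had 43 genes at an unadjusted p below 0.05 between D1 and D2 nuclei.

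The shares of D1 nuclei in C57J 1, C57J 2, nude and BALB/c were 0.493%, 0.241%, 0.0735% and 0.126% after thinning, 0.839%, 0.188%, 0.0490% and 0.428% with stricter limits, and 2.21%, 0.920%, 0.318% and 0.948% without those subgroups. Among D1 and D2 nuclei of C57J 1 the D1 share was 65.7% after thinning and 77.6% with stricter limits. At a clustering resolution of 1, subgroups 1 to 4 held 17.6%, 17.3%, 11.2% and 10.4% of the nuclei. With doublets removed, subgroups 1, 3, 4 and 5 held 35.6%, 7.78%, 16.5% and 7.93%, and subgroups 7 and 8 gave no value. The log2 fold change of Cpa6 reversed to 1.02 without those subgroups. Homer1 was -0.037 after thinning, -0.081 with doublets removed, -0.12 with stricter limits, -0.046 without those subgroups, and -0.25 to 0.47 without 1 library. All genes called in the comparison of backgrounds that could be tested kept their direction under each alternative.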
